A study of Mus musculus with 6 samples.

Results

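The 10 genes described here encode negative feedback regulators of the ERK branch of MAP kinase signalling, chosen by name: the dual-specificity phosphatases Dusp1, Dusp4, Dusp5 and Dusp6, the Sprouty genes Spry1, Spry2 and Spry4, and the Spred genes Spred1, Spred2 and Spred3. They are 10 of 35905 genes with a row in the transcript tables, and all 10 were among the 13247 genes tested. Their messenger RNA was measured in EO771-tdT-LM2 and EO771-tdT-Parental cells, called LM2 and Parental below, with 3 libraries of each line. EO771 is a mouse mammary cancer line grown in culture, both lines carry the tag tdT in their names and the genotype label WT, and neither was treated. The titles of the 3 Parental libraries also carry the tag Ac6, which the LM2 titles lack and which the labels do not explain. Nor do the labels spell out how LM2 was obtained from the parental cells or whether either line is a clone. Cells were kept for 48 h in RPMI medium with 10% fetal bovine serum, up to roughly 75% confluence, so growth factors from serum were present in every library.

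ERK is activated by a relay that runs from receptor tyrosine kinases through Ras, Raf and MEK. Active ERK induces transcription of its own inhibitors, so the messenger RNA of several of these genes is often read as a sign of recent pathway activity. The phosphatases remove phosphate from MAP kinases themselves, Sprouty proteins act near the receptor and Ras, and Spred proteins bring the Ras-inactivating protein neurofibromin to the membrane.

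Depth was 33922699 to 38182191 estimated counts in LM2 libraries and 36597892 to 45849019 in Parental libraries, and the members had between 95 and 6582 counts in a library. Across genes, log2 CPM (counts scaled for depth) correlated at 0.991 to 0.994 between libraries of a line and at 0.962 to 0.964 between lines, as a description, since genes are no replicates. Levels are given in TPM, a share of all transcripts scaled for length, and fold changes come from counts scaled for depth. Of 6 mammary epithelial markers, 3 averaged above 1 TPM in LM2 and 2 in Parental. Krt8 averaged 485 TPM in LM2 and 351 TPM in Parental, Epcam 14.6 TPM in LM2 and 0.197 TPM in Parental, and Krt14 8.60 TPM in LM2 and 1.09 TPM in Parental. The means of Cdh1, Krt18 and Krt5 lay below 0.2 TPM in both lines. Leukocyte markers summed to 3.73 to 4.61 TPM in LM2 and 2.49 to 3.29 TPM in Parental, nearly all of it Cd68, with Ptprc averaging 0.0348 TPM in LM2 and 0.0286 TPM in Parental and Adgre1 listed at 0. Endothelial markers summed to 2.42 to 2.63 TPM in LM2 and 2.12 to 3.28 TPM in Parental, nearly all of it Pecam1. Fibroblast markers summed to 419 to 452 TPM in LM2 and 256.5 to 262 TPM in Parental, mostly from Col1a1, with Dcn and Lum near 0. The epithelial and fibroblast sums were higher in LM2, but not every marker was. Pdgfra averaged 60.5 TPM in LM2 and 40.3 TPM in Parental, Pdgfrb 13.7 TPM in LM2 and 13.8 TPM in Parental. The scarce Col1a2 and Cdh1 were lower in LM2. The part of these differences in the results below was not tested. Nothing in the labels tells separate cultures from repeat libraries of 1 culture, and the p-values speak for the spread among these libraries alone, which may be technical. In bulk RNA, a lower level in every cell and fewer cells that express a gene cannot be told apart.

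The promoters of Dusp1, Dusp5 and Dusp6 are shown as examples, chosen with the changes and motif matches of these 3 phosphatase genes known. Whether motifs go with the changes was not tested. The RefSeq windows are on GRCm38.p6, run from 250 bases before to 50 bases after the annotated start, and stand 5′ to 3′ on the strand of the gene. Capitals mark matches on either strand to 6 motifs: GGAAGT (ETS factors), TGACGTCA and its shorter core TGACG (CREB and ATF factors), TGANTCA (AP-1), TATAAA, and the CArG box of serum response factor.
Dusp1 promoter, chr17:26508423-26508722, minus strand: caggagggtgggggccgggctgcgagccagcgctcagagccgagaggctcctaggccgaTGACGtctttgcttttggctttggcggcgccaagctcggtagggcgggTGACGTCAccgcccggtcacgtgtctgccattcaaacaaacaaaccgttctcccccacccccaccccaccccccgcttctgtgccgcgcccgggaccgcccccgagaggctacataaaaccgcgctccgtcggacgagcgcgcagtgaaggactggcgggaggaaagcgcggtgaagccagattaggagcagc
Dusp5 promoter, chr19:53528895-53529194, plus strand: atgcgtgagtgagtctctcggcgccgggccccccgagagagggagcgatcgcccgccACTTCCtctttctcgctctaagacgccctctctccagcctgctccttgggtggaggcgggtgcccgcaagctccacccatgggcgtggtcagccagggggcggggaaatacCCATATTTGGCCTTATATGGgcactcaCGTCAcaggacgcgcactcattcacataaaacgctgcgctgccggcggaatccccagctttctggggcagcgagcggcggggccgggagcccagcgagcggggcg
Dusp6 promoter, chr10:99262981-99263280, plus strand: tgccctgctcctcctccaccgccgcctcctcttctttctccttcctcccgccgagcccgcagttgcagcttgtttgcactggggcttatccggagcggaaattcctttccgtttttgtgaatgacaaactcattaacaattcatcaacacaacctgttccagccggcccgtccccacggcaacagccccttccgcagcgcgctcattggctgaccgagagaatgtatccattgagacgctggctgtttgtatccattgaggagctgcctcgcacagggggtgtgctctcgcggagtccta

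The Dusp1 window held the full palindrome TGACGTCA, starting 143 bases before the start, which also contains the core on both strands, and 1 more core 191 bases before. The full palindrome occurred in 1.79% of 32851 promoter windows of the same length, and the core in 20.8%. The Dusp5 window held 2 adjoining CArG boxes, CCATATTTGG and CCTTATATGG, starting 82 and 72 bases before the start, together with 1 ETS motif and 1 core. CArG boxes occurred in 1.63% of all windows, and the ETS letters in 23.8%. None of the 6 motifs was found in the Dusp6 window. Promoter windows were matched for 8 members, all except Dusp4 and Spry4. Of the other 5, the Spred2 window had 1 ETS motif and 1 core, and the windows of Spry1, Spry2, Spred1 and Spred3 had no match. TGANTCA, found in 7.81% of all windows, and TATAAA, found in 13.6%, were in none of the 8. A match is a description of letters and not of a bound site.

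In LM2, 7 of the 10 genes were higher, 1 was lower and 2 did not pass, in edgeR's quasi-likelihood test with p-values adjusted over all tested genes by the method of Benjamini and Hochberg. Over all tested genes 62.4% passed the same threshold of 0.05, 31.4% higher and 31.1% lower. In a table where most genes differ, being called sets no member apart, and the lean of the members to higher was not tested. The median log2 fold change of the 10 was 0.17, against -0.0037 over all tested genes, and the median size without sign was 0.23, against 0.24. The libraries of the lines did not overlap for 7 members, 6 with all LM2 libraries above and 1 with all below, and for 67.0% of all tested genes, 33.4% above and 33.6% below. Dusp1 was the only member that changed more than 2-fold, and 6.33% of tested genes had a larger change than Dusp1 in either direction.

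**Figure D1:**
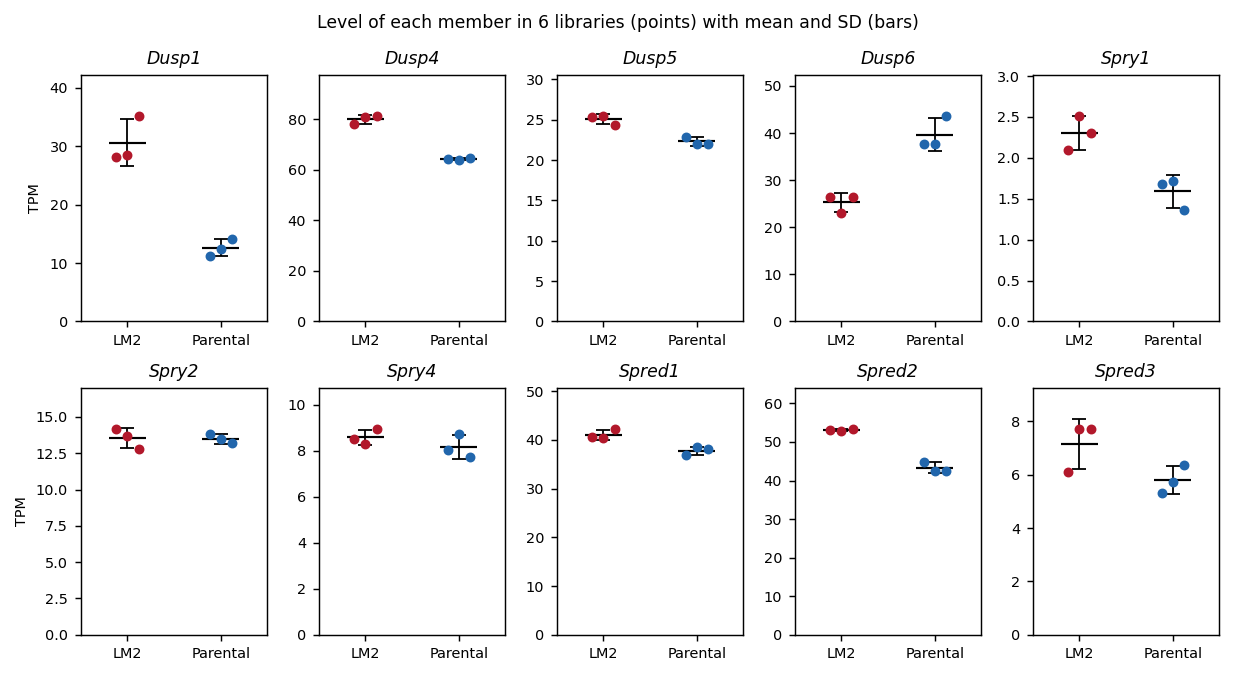
Level of each member in TPM (vertical axis from 0, own scale per gene) in 3 LM2 and 3 Parental libraries. Points are libraries, and bars are the mean and SD. Dusp1 lies at 28.2 to 35.2 TPM in LM2 and 11.3 to 14.1 TPM in Parental, and Dusp6 at 23.0 to 26.4 TPM in LM2 and 37.6 to 43.7 TPM in Parental.

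Dusp1, also called MKP-1, is a nuclear phosphatase induced early by serum and stress that acts on p38 and JNK as well as ERK. Its level was 28.2, 28.4 and 35.2 TPM in LM2 libraries 1 to 3, against 11.3, 12.4 and 14.1 TPM in Parental libraries 1 to 3. Every LM2 library was above every Parental library, with LM2 replicate 3 the highest. On the scale of scaled counts, Dusp1 rose 2.45-fold in LM2, with a 95% interval of 2.09 to 2.88 (log2 fold change 1.29 ± 0.10 SE, edgeR adjusted p = 4.42e-06). The tested genes of chromosome 17, where Dusp1 lies, had a median log2 fold change of 0.03, and its 20 tested neighbours, 10 on each side, a median of 0.08.

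The tables also resolve transcripts of Dusp1. The main coding transcript Dusp1-202 was at 19.4, 19.9 and 23.9 TPM in LM2 and 9.06, 9.60 and 9.56 TPM in Parental. Dusp1-203, annotated as retaining an intron, was at 5.01, 4.91 and 6.31 TPM in LM2 and 0.959, 1.04 and 1.84 TPM in Parental. Both were higher in every LM2 library, the second by the wider ratio. Dusp1-203 thus made up 17.8%, 17.3% and 17.9% of the gene's TPM in LM2, against 8.51%, 8.40% and 13.0% in Parental. Dusp1-204, also annotated as retaining an intron, was higher in every LM2 library too. Its share was 13.0% ± 1.3 in LM2 and 14.9% ± 4.2 in Parental (SD, n = 3 each). All transcripts not annotated as coding held together 28.9% to 32.1% of the gene's TPM in LM2 and 19.5% to 32.3% in Parental, so these wider shares overlapped, Parental replicate 3 standing above the other Parental libraries. The deposited tables give no error for the division of reads among transcripts, and these shares were not tested. Counting only coding transcripts, an alternative chosen after the shares were seen, the log2 fold change of Dusp1 was 1.14 (edgeR adjusted p = 9.84e-10).

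**Figure D2:**
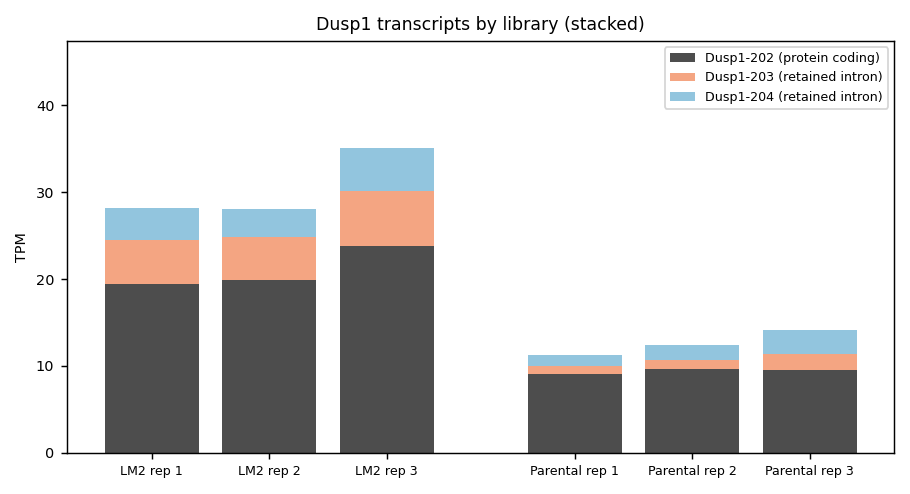
Dusp1 transcripts in each library, in TPM stacked from 0, for the 3 transcripts with more than 1% of the gene in either line. The coding transcript (dark) and the retained-intron transcripts Dusp1-203 (orange) and Dusp1-204 (light blue) are each higher in the 3 LM2 libraries than in any Parental library.

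Dusp6, also called MKP-3, is a cytoplasmic phosphatase selective for ERK and 1 of its best known transcriptional targets. It was at 26.4, 23.0 and 26.4 TPM in LM2 libraries 1 to 3, against 37.6, 37.7 and 43.7 TPM in Parental libraries. Every LM2 library was below every Parental library. Dusp6 fell in LM2 to 0.647 of its Parental level (95% interval 0.602 to 0.695), a log2 fold change of -0.63 ± 0.05 SE with an edgeR adjusted p = 6.07e-09. The gene lies on chromosome 10, on which the tested genes as a whole were lower in LM2, with a median log2 fold change of -0.33 and 62.8% called lower. Its 20 tested neighbours had a median of -0.17, and 10 of them were called lower. The fall of Dusp6 was larger than either median, and what share of it goes with the chromosome was not tested. The main transcript Dusp6-201 held 84.6% ± 2.0 of the gene's TPM in LM2 and 80.2% ± 5.2 in Parental (SD, n = 3 each).

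Dusp4, or MKP-2, is an inducible nuclear phosphatase that acts on ERK and JNK, and it had the highest level among the members in both lines. It was at 77.9, 80.7 and 81.4 TPM in LM2 and at 64.2, 63.9 and 64.8 TPM in Parental, with no overlap. Dusp4 rose 1.22-fold (95% interval 1.17 to 1.27, edgeR adjusted p = 4.07e-09). It lies on chromosome 8, whose tested genes were lower in LM2 (median log2 fold change -0.31, 64.6% called lower), and of its 20 tested neighbours 10 were lower and 5 higher, so Dusp4 with its log2 fold change of 0.29 moved in the other direction from most genes of its chromosome.

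Dusp5 is a nuclear phosphatase specific for ERK. Its levels of 25.3, 25.5 and 24.3 TPM in LM2 stood close above 22.9, 22.0 and 22.0 TPM in Parental. Dusp5 rose 1.10-fold (95% interval 1.03 to 1.17, edgeR adjusted p = 0.00905), a call that DESeq2 did not make (adjusted p = 0.0528). Of its 31-base words, 21.2% also occur in an annotated antisense transcript, whose gene had no row among the quantified genes. As no treatment of strand is given, reads of that transcript could not be told apart from those of Dusp5.

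**Figure D3:**
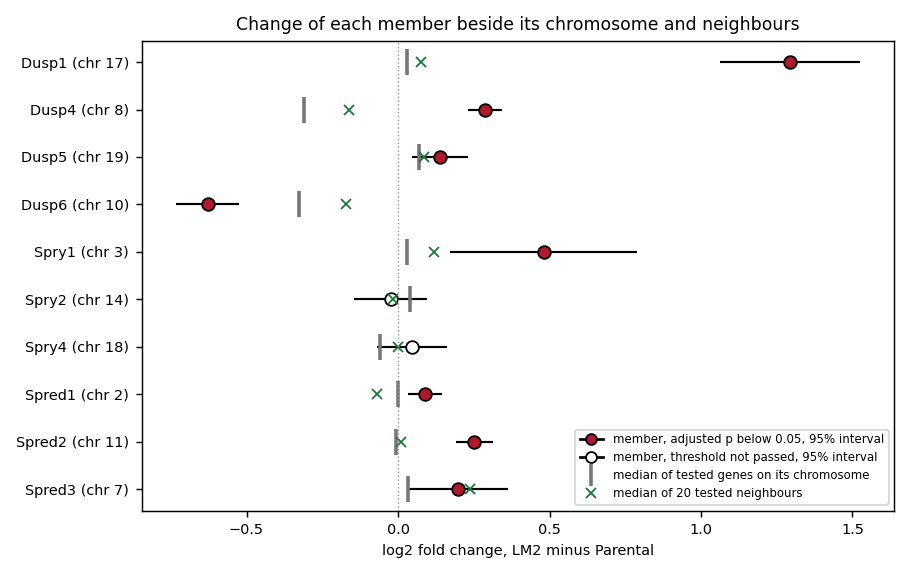
Log2 fold change of each member, LM2 minus Parental (horizontal axis), with its 95% interval, filled where the edgeR adjusted p was below 0.05. Grey bars give the median of the other tested genes on the chromosome, and crosses the median of the 20 tested neighbours. Dusp1 at 1.29 stands far to the right of both marks, Dusp6 at -0.63 to the left of a chromosome that is itself lower, and Dusp4 at 0.29 to the right of a lower chromosome.

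The Sprouty genes had the lowest summed level of the 3 families, 2 of them did not pass and the other was scarce. Spry2, whose protein binds the ubiquitin ligase Cbl and the adaptor Grb2, was at 14.2, 13.7 and 12.8 TPM in LM2 and 13.8, 13.5 and 13.2 TPM in Parental. The libraries of the lines interleaved, and the 95% interval of the ratio of LM2 to Parental ran from 0.904 to 1.07 (edgeR adjusted p = 0.741). Spry4, an inhibitor of signalling from receptor to Ras, was at 8.52, 8.30 and 8.95 TPM in LM2 and 8.04, 8.73 and 7.74 TPM in Parental. Its 95% interval ran from 0.954 to 1.12 (edgeR adjusted p = 0.490), which covers the spread among these libraries alone. Spry1, which restrains growth factor receptors in kidney and other developing organs of the mouse, was the lowest member, at 2.10, 2.52 and 2.31 TPM in LM2 and 1.69, 1.72 and 1.36 TPM in Parental. Spry1 rose 1.40-fold with a wide interval of 1.13 to 1.73 (edgeR adjusted p = 0.00736), on 121 to 146 counts in LM2 libraries and 95 to 132 in Parental libraries. For Spry1, 23.1% of the 31-base words occur in an annotated transcript of another gene model, which leaves its level less certain. That gene model also had no row among the quantified genes. The shares of its 3 transcripts scattered too widely to compare, the longest holding 58.8% ± 16.4 of the gene's TPM in LM2 and 73.5% ± 23.8 in Parental (SD, n = 3 each).

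Spred1 and Spred2, whose proteins carry a Sprouty-type domain and recruit neurofibromin, ranked among the 4 highest members in both lines. Spred2 was at 53.1, 52.9 and 53.4 TPM in LM2 and 44.9, 42.5 and 42.6 TPM in Parental, with all LM2 libraries above. Spred2 rose 1.19-fold (95% interval 1.14 to 1.24, edgeR adjusted p = 1.13e-07). Its main transcripts kept similar shares, the 4449-base form holding 56.3% ± 1.3 in LM2 and 58.3% ± 2.7 in Parental (SD, n = 3 each). Spred1, the gene mutated in human Legius syndrome, was at 40.6, 40.3 and 42.2 TPM in LM2 and 36.8, 38.5 and 38.0 TPM in Parental. Spred1 rose 1.06-fold (95% interval 1.02 to 1.11, edgeR adjusted p = 0.00614), an amount that lost the call without a low-count filter (adjusted p = 0.0539) or without Parental replicate 1 (0.0647). Spred3, the third gene of the family, was at 6.09, 7.71 and 7.70 TPM in LM2 and 5.32, 5.72 and 6.35 TPM in Parental, and the lines overlapped. Transcripts of Spred3 not annotated as coding held 37.1% ± 9.5 of its TPM in LM2 and 34.2% ± 4.0 in Parental (SD, n = 3 each). Spred3 rose 1.15-fold (95% interval 1.03 to 1.29, edgeR adjusted p = 0.0309). That call was lost in 7 of 15 other settings. Among these were DESeq2 (adjusted p = 0.134) and leaving out Parental replicate 1 (0.142), Parental replicate 2 (0.165), LM2 replicate 2 (0.0955) or LM2 replicate 3 (0.107). Without Parental replicate 3 its log2 fold change was 0.31, against 0.20 with all libraries.

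TPM is scaled for transcript length, so levels of different genes can be set side by side. In LM2 the order was Dusp4, Spred2, Spred1, Dusp1, Dusp6, Dusp5, Spry2, Spry4, Spred3 and Spry1, and only Dusp6 and Dusp5 had overlapping ranges as neighbours in it. In Parental the order was Dusp4, Spred2, Dusp6, Spred1, Dusp5, Spry2, Dusp1, Spry4, Spred3 and Spry1. There Spred2 and Dusp6, Dusp6 and Spred1, and Spry2 and Dusp1 could not be ranked, as their ranges overlapped. Dusp1 thus stood 4th in LM2 and 7th in Parental, and Dusp6 5th in LM2 and 3rd in Parental. Summed by family, the 4 phosphatase members came to 161 ± 5.6 TPM in LM2 and 139 ± 5.0 TPM in Parental. That sum leaves out 7 other phosphatases of MAP kinases described below, of which 5 were higher and 2 lower in LM2. Among them is the more abundant Dusp9, at 269 TPM in LM2 and 298 TPM in Parental. The Sprouty genes summed to 24.4 ± 0.39 TPM in LM2 and 23.2 ± 0.85 TPM in Parental. The Spred genes summed to 101.3 ± 1.8 TPM in LM2 and 86.9 ± 0.20 TPM in Parental (SD, n = 3 each). Sums are dominated by the most abundant member and were not tested.

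Other genes of the pathway were grouped into 6 lists. Their counts stand beside 31.4% of all tested genes called higher and 31.1% called lower, and no list was tested as a set. For the relay from adaptor to kinase, 6 of 17 genes were higher in LM2, 7 lower and 4 did not pass, with a median log2 fold change of -0.02. With an offset for effective length, 4 were higher and 4 lower. Rps6ka1, a kinase activated by ERK, rose by 0.95 on the log2 scale, at 19.6 ± 0.9 TPM in LM2 and 8.97 ± 0.28 TPM in Parental. Braf, which encodes a Raf kinase, fell by 0.38, at 16.6 ± 0.59 TPM in LM2 and 21.2 ± 0.23 TPM in Parental. It lies on chromosome 6, whose tested genes had a median log2 fold change of -0.18, and the part of the chromosome in this value was not tested. The Ras activator gene Sos1, at 15.6 ± 0.67 TPM in LM2 and 15.1 ± 0.74 TPM in Parental, did not pass (SD, n = 3 each).

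Upstream, 3 of 9 tested receptor tyrosine kinases were higher in LM2 and 4 lower, with a median of -0.03. Fgfr2, Fgfr4 and Kit were too low to test. Egfr fell, to 5.84 ± 1.41 TPM in LM2 against 10.6 ± 0.97 TPM in Parental (edgeR adjusted p = 5.36e-13). Its relative Erbb3 fell by 0.81 on the log2 scale and the receptor of hepatocyte growth factor, Met, by 0.67. Erbb3 lies on chromosome 10 (median log2 fold change of tested genes -0.33) and Met on chromosome 6 (-0.18), and the part of those shifts in their falls was not tested. Pdgfra, a receptor of platelet-derived growth factor, rose by 0.52. Pdgfrb and Fgfr3 did not pass, with log2 fold changes of -0.03 and 0.27. Fgfr3 was scarce, at 0.80 TPM in LM2 and 0.46 TPM in Parental, with a wide 95% interval of -0.31 to 0.86. Among adaptors and Ras GTPase-activating genes that work with Sprouty and Spred proteins, 2 of 7 tested were higher and 4 lower (median -0.14). Tesk1, a kinase that Sprouty proteins bind, rose by 0.66 and the phosphatase gene Ptpn11 by 0.32, whereas the adaptor gene Gab1 fell by 0.23 and Cbl by 0.17. Gab1 lies on chromosome 8, where the median was -0.31, a larger fall than that of Gab1. Nf1, which encodes the neurofibromin that Spred proteins recruit, was at 41.7 ± 3.0 TPM in LM2 and 41.3 ± 1.5 TPM in Parental (SD, n = 3 each) and did not pass (edgeR adjusted p = 0.165).

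Of 7 other phosphatases of MAP kinases, 5 were higher and 2 lower in LM2, with a median log2 fold change of 0.28. Dusp10, Dusp16 and Dusp8, which act mainly on JNK and p38, rose by 0.76, 0.37 and 0.34, and the nuclear phosphatase Dusp2 fell by 0.32. Dusp10 was scarce, at 3.67 ± 0.47 TPM in LM2 and 2.13 ± 0.16 TPM in Parental (SD, n = 3 each). Dusp9, a phosphatase selective for ERK that is named here after its values were seen, was the most abundant of the MAP kinase phosphatases measured here. It was at 268, 266.5 and 271 TPM in LM2 and 308, 289 and 298 TPM in Parental, several times the level of Dusp4, and fell by 0.18. Of 7 tested feedback inhibitors of other kinds, 3 were higher, 1 lower and 3 did not pass, with a median of 0.53. Errfi1, an inhibitor of the EGF receptor, rose by 0.72, the receptor antagonist Lrig1 by 0.63 and the cytokine signal inhibitor Socs3 by 0.53. The adaptor gene Sh2b3 fell by 0.12. Rasal2 and Dok1 did not pass, at -0.07 and -0.09, and Rasal1 was too low to test.

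Genes that ERK signalling is known to induce were also mixed, with 6 of 11 tested higher, 2 lower and 3 not passing (median 0.18). The ETS factor genes Etv4 and Etv5, which are often induced together with Dusp6 and the Sprouty genes, fell by 0.74 and 0.60. The Sprouty genes did not fall with them: Spry2 (-0.02) and Spry4 (0.05) did not pass, and the scarce Spry1 rose by 0.48. Etv4 was at 101.5, 100.7 and 99.3 TPM in LM2 against 163, 152 and 164 TPM in Parental. Etv5 was at 25.2, 25.1 and 28.1 TPM in LM2 against 37.9, 38.7 and 39.0 TPM in Parental. Epha2, a receptor kinase, rose by 0.53 and Myc by 0.29. Klf6 and Elk3 did not pass (-0.05 and -0.04). The immediate early gene Egr1 was too low to test, at 0.163 TPM in LM2 and 0.0649 TPM in Parental. Rps6ka1, Tesk1, Errfi1 and Epha2 all lie on chromosome 4, whose tested genes had a median log2 fold change of 0.39 with 73.6% called higher, and the part of that shift in their rises was not tested. Dusp6, Etv4 and Etv5 lie on chromosomes 10, 11 and 16, whose tested genes had median log2 fold changes of -0.33, -0.01 and 0.04.

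**Figure D4:**
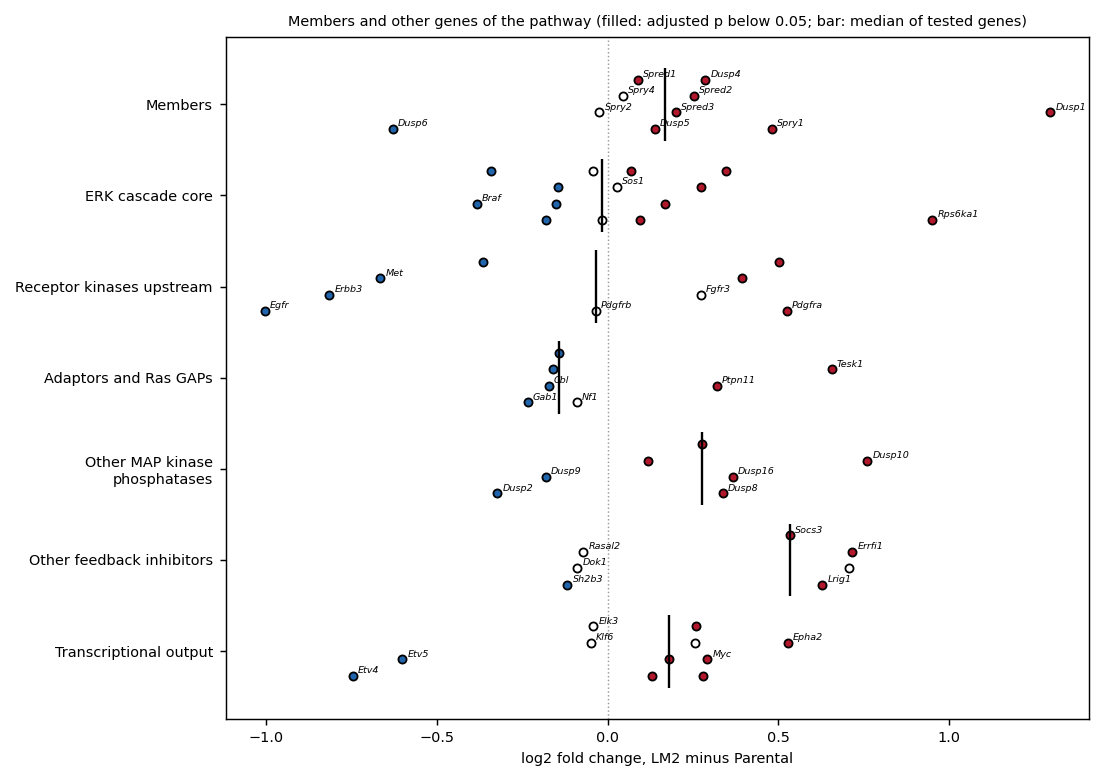
Log2 fold change, LM2 minus Parental (horizontal axis), of the members and of tested genes of the 6 lists, 1 point per gene with names for those in the text, filled where the edgeR adjusted p was below 0.05 and open where it was not. Vertical bars are medians, 0.17 for the members and 0.28 for the other MAP kinase phosphatases, and the members and each of the 6 lists hold at least 1 called gene on either side of 0.

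In the authors' deposited table of fold changes, all 10 members are listed, with 1.24 for Dusp1, 0.29 for Dusp4, 0.14 for Dusp5 and -0.6 for Dusp6. The authors' deposited table gives 0.51 for Spry1, -0.02 for Spry2 and 0.05 for Spry4, and 0.09, 0.27 and 0.21 for Spred1, Spred2 and Spred3. Its direction and log base are not written in it and were read from the 10544 genes it shares with the fit made here, across which the slope was 0.922 and the median absolute difference 0.02.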

How the data were processed

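RNA of 3 LM2 and 3 Parental libraries was measured with an mRNA library kit, per the labels, and groups came from the sample titles. The authors deposited estimated counts and TPM per transcript, with lengths in bases, made, according to the submitters' processing notes, with kallisto 0.46.2 and build GRCm39. Which transcript set was used, and how strand was handled, is not given in the sources used here. They also deposited log2 fold changes per gene, with edgeR 3.32.1 listed in those notes.

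Transcripts were assigned by Ensembl identifier to genes of GENCODE release M21 (GRCm38), used for names, chromosomes and order. Of 117486 transcripts, 116408 (99.1%) matched, and the others held 0.426% to 0.448% of a library and were left out. Both units were added up per gene, and the counts then rounded to whole numbers. kallisto divides reads among transcripts that share sequence, so the share of 31-base words found in other genes was computed. edgeR 4.0.16 (R 4.3.3) was run on all genes with filterByExpr, TMM and the robust quasi-likelihood test, with no covariate, and calls at a Benjamini-Hochberg adjusted p below 0.05. SE and 95% intervals were approximated from the F statistic and the fold change. The code was tested on simulated data in which few genes changed, in random directions. That differs from these data, where most genes were called, so it says nothing about calls under such wide change. Alternatives were DESeq2 1.42.0, limma 3.58.1 with voom, other scaling and filters, a length offset, a replicate block, each library left out, and coding transcripts alone.

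Members and lists were chosen with earlier results of these data known, so their directions are not independent evidence. List genes are named if called at 5 CPM or more, up to 4 a list by size of change and from both directions. Up to 2 that did not pass are also named, the most abundant first. A few genes of the lists are counted but not reported by name or plotted here. Chi-square per degree of freedom between libraries of a line was 3.09 to 7.52, so no library is a copy of another. Promoters are RefSeq's on GRCm38.p6.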

Additional observations from a re-analysis of the deposited data

How the results depend on the processing

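Dusp1, Dusp4, Dusp6, Spry1 and Spred2 kept direction and call in all 15 other settings, with log2 fold changes of 1.14 to 1.36, 0.26 to 0.29, -0.68 to -0.58, 0.39 to 0.54 and 0.23 to 0.28. Spry2 and Spry4 were called in none, with adjusted p of 0.335 to 0.922 and 0.182 to 0.935. Dusp5 kept its call in 14, Spred1 in 13 and Spred3 in 8. Some kept calls lay close to the threshold. The edgeR adjusted p of Dusp5 was 0.0497 without a low-count filter and 0.0498 with the effective length offset. With that offset it was 0.0470 for Spred1. Besides the settings named with the results, Spred3 lost its call with the effective length offset (adjusted p = 0.0608) and with coding transcripts alone (0.0566). The members called higher numbered 5 to 7 with a library left out, and 5 with DESeq2, while 1 was lower in every setting. Genes called numbered 6985 to 8596 over all settings, against 8272 of 13247 tested in the main fit. The number tested also differed, so these counts are not shares of the same total. Without a low-count filter 8596 of 22739 were called, and with DESeq2 7451 of 17444. The labels do not say that replicate numbers pair the libraries. Deviations of same-numbered libraries from their line means correlated at -0.08, 0.05 and 0.01, and those of different-numbered libraries at -0.09 to 0.07. With 3 libraries of each line these values cannot decide whether cultures were paired. With the replicate block, 8250 genes were called, and 7 members were higher and 1 lower. Without Parental replicate 3, 2 of the other feedback inhibitors were lower instead of 1, as with coding transcripts alone. Depth limits Spry1 most, with 95 counts in its lowest library.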
